A study of Arabidopsis thaliana with 22 samples.

Results

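ZMP chromatin binding was described as 4709 ZMP sites on chromosomes 1 to 5 of Arabidopsis inflorescences. A ZMP site was a merged region that held a peak in both ZMP-HA chromatin immunoprecipitation (ChIP) libraries and touched no peak of the 2 libraries made from plants without a transgene. The 2 ZMP-HA lists merged into 7906 regions, so that 59.6% of them became sites. Of the others, 2146 had a peak in replicate 1 only and 816 in replicate 2 only. A further 235 regions had a peak in both lists and touched a peak found without the transgene.

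The study asked how RNA polymerase IV (Pol IV) is brought to its targets and profiled ZMP, the Pol IV subunit NRPD1 and the histone mark H3K4me3 in 22 ChIP-seq samples. The ZMP-HA plants were Col-0, labelled WT, and carried a pZMP::ZMP-HA transgene, a fusion of ZMP to a hemagglutinin (HA) tag under the promoter of ZMP itself. The plants without a transgene were WT Col-0 and were processed with the same anti-HA antibody (set B). Each group had 2 biological replicates of inflorescences, collected in bulk from plants grown in long days, and each immunoprecipitate had its own input. The methods speak of a single ZMP-HA line. The labels give its genotype as WT, while the methods also say that constructs were put into the matching mutants, so whether untagged ZMP was present as well is not settled here. A peak list carries no expression values, so the tissue could not be checked against marker genes.

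Pol IV makes the precursors of small interfering RNAs that guide DNA methylation to transposons and other repeats, a process called RNA-directed DNA methylation. ZMP is a plant protein with a PHD-type zinc finger, a SWIB/MDM2 domain and a Plus-3 domain. PHD fingers commonly read histone tails. In Arabidopsis, pericentromeres are rich in transposons and poor in genes, whereas the chromosome arms are rich in genes with scattered transposons.

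The bases under the summits, the points of highest enrichment, are shown for 5 strong sites in different surroundings and, for contrast, for the widest site. Each run has 151 bases from the plus strand of TAIR10 (RefSeq TAIR10.1), centred on the summit in the replicate where the site ranked better, with CG dinucleotides, which can carry symmetric methylation, in capitals.
strongest site, downstream of AT3G04490 (chr3:1210623-1210773): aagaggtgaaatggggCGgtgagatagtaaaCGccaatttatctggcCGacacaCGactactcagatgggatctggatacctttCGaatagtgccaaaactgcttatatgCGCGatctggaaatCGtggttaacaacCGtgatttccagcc
second strongest site, pseudogene AT3G43832 (chr3:15682286-15682436): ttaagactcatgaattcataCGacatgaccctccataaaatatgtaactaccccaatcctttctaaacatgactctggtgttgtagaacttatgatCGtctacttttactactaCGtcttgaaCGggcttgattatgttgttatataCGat
next strongest site, pseudogene AT1G77095 (chr1:28965130-28965280): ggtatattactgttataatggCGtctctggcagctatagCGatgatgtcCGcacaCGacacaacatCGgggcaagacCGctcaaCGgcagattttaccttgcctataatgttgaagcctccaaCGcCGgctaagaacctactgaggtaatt
strongest site on no gene in the arms (chr4:17637395-17637545): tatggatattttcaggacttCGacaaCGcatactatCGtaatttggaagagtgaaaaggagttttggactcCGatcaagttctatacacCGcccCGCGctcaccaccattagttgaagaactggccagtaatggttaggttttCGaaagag
strongest pericentromeric site with its summit in coding sequence, AT4G08545 (chr4:5439004-5439154): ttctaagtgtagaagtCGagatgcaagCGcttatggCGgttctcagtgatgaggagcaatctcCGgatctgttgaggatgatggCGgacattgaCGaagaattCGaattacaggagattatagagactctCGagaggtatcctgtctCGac
widest site, beside pseudogene AT5G28100 (chr5:10107082-10107232): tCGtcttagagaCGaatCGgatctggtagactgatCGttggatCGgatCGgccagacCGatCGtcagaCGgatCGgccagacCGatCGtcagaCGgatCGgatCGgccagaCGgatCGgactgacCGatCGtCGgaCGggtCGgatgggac
The 5 runs from strong sites held 5 to 9 CG dinucleotides and had a GC content of 35.8% to 48.3%. None of their 25-base words occurred a second time on the 5 chromosomes. The run from the widest site differed from them, with 22 CG dinucleotides, a GC content of 60.3% and 80.3% of its 25-base words repeated, up to 22 times.

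ZMP-HA gave many more peaks than plants without the transgene. The ZMP-HA lists held 7247 and 6730 peaks on the 5 chromosomes, against 271 and 299 without a transgene. The means were 6988 ± 366 and 285 ± 19.8 peaks (SD, n = 2 each), and the two-sided exact permutation test over libraries gave p = 0.333, the smallest that 2 libraries against 2 allow. Median peak widths were 761 and 647 bases in ZMP-HA and 490 and 616 bases without a transgene, so the groups did not overlap (exact permutation p = 0.333). The most common background coverage in a list was 29.3 and 24.8 fragments per base in ZMP-HA and 27.3 and 30.6 without a transgene. It is only a stand-in for depth and need not follow the depth of the immunoprecipitate. Of the ZMP-HA peaks, 65.3% and 55.5% had this background level, against 22.9% and 20.4% of those without a transgene. Peaks on a local background more than 2 times that level made up 2.83% and 3.55% of the ZMP-HA peaks, against 41.3% and 44.1% of those without a transgene. On the organelle genomes ZMP-HA had no peaks, while the libraries without a transgene had 23 and 16.

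Enrichment was low at most sites, and the replicates ranked sites of the arms more alike than pericentromeric ones. Fold enrichment is the fragment pileup at the summit over the local background, as the peak caller gives it. Its median over the 4709 sites was 2.51 in ZMP-HA replicate 1 (quartiles 2.17 and 3.04) and 2.25 in replicate 2 (1.98 and 2.65), and 70.0% of the sites were higher in replicate 1. Across sites, which are not independent of each other, Spearman's rho between replicates was 0.623. It was 0.40 over the 2194 pericentromeric sites and 0.721 over the 2515 sites of the arms. Fold enrichment spread less in pericentromeric sites, with quartiles of 2.08 and 2.69 in replicate 1 and 1.90 and 2.36 in replicate 2. In the arms the quartiles were 2.31 and 3.49, and 2.09 and 3.02. The part of this spread in rho was not tested. The summits of the replicates lay a median of 99 bases apart, with 69.6% of the pairs within 200 bases. The plot of enrichment in both replicates shows a dense cloud of weak sites and a thin tail of strong ones.

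**Figure D1:**
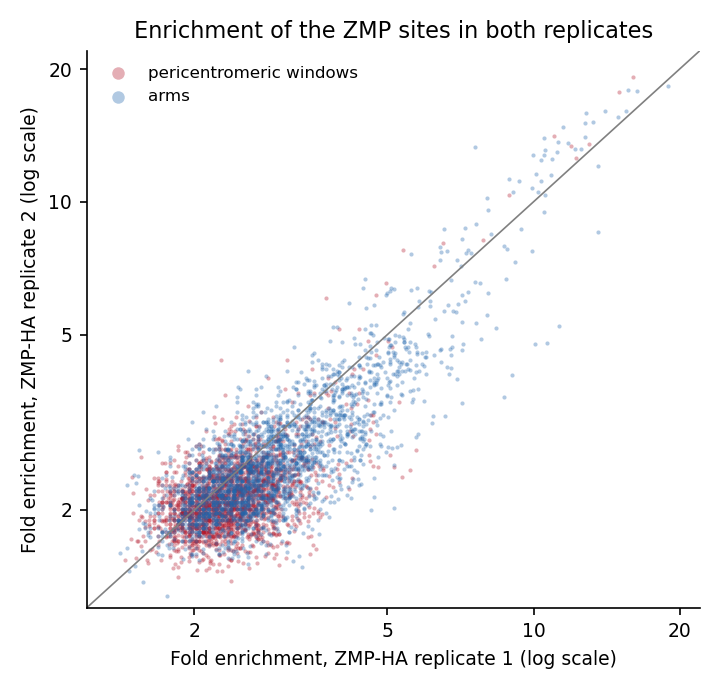
Fold enrichment of each of the 4709 ZMP sites in ZMP-HA replicate 1 (x axis, log scale) against replicate 2 (y axis, log scale), in red for pericentromeric windows and blue for the arms, with the line of equal values in grey. The cloud centres on the medians of 2.51 and 2.25, and the 103 sites above 5 in both replicates are mostly blue.

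The strongest sites were mostly in the arms, near genes and low in repeats. In both replicates 103 sites exceeded a fold enrichment of 5, and 33 exceeded 10. Of these 103 sites, 10.7% were pericentromeric, against 46.6% of all sites and 68.5% of the 337 sites under 2 in both replicates. They were wide, with a median of 1910 bases, against 1102 bases over all sites. Their median GC content was 33.5%, against 42.2%, and a median of 3.68% of their 25-base words were repeated in the genome, against 25.8%. They lay near genes, since 83.5% were on a protein-coding gene or within 1 kb of one, against 40.9% of all sites. Few stood in clusters, as 27.2% had another site within 5 kb, against 68.5%. These are descriptions of one set of sites and no test was made of them.

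The 10 best ranked sites, by the worse of their ranks in the replicates, had fold enrichments of 12.8 to 19.0 in replicate 1 and 15.2 to 19.2 in replicate 2. At all 10, the local background was at the usual level of the library. Only 2 of them were pericentromeric. The strongest site (chromosome 3, 1209452 to 1211583) had 19.0 and 18.3, and its summit was 728 bases past the 3′ end of AT3G04490, annotated as an exportin. The second (chromosome 3, 15681012 to 15683363) had 16.0 and 19.2, with its summit on AT3G43832, a pseudogene of a carboxyl-terminal peptidase inside the pericentromeric window. The third (chromosome 1, 28964114 to 28966760) had 16.4 and 17.8 on the pseudogene AT1G77095. These 3 sites were 2132 to 2647 bases wide, and their summits agreed between replicates within 35 bases.

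Of the 10, 4 overlapped no annotated gene. Distances are given from the summit. The first of them (chromosome 4, 17636584 to 17638414) had 15.5 and 16.1, and its summit lay 1069 bases beyond the 3′ end of AT4G37530. The second (chromosome 5, 3750876 to 3753758) had 14.0 and 16.0 and lay 1520 bases upstream of NADP-ME2, which encodes a cytosolic malic enzyme. The third (chromosome 4, 13902581 to 13903690) had 13.3 and 15.2, at 928 bases past the 3′ end of PYL10, which encodes an abscisic acid receptor. Its nearest other site was 217838 bases away. The fourth (chromosome 4, 2558995 to 2562434) had 12.8 and 15.9, at 2515 bases upstream of VPS28-2, an ESCRT component. The fifth best site on no gene of the arms (chromosome 5, 9799998 to 9802831) had 12.8 and 15.1 and lay 2008 bases upstream of RECQSIM, a RecQ-like helicase gene. A strong site near UGE2, a UDP-glucose epimerase gene, had 14.9 and 15.6 (chromosome 4, 12433551 to 12436021), with its summit 682 bases past the 3′ end.

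Pericentromeres held sites at a higher density than the arms, but not among the sites kept by a stricter filter that favours strong sites. Pericentromeric windows were runs of 100 kb windows around the lowest gene density of each chromosome, with fewer than 50% of the chromosome's median gene density, and made up 14.4% of the bases. They held 46.6% of the sites (95% exact binomial interval 45.2 to 48.0, counting error only), or 128 sites per Mb, against 24.7 per Mb in the arms. Sites covered 21.1% of the pericentromeric bases and 3.45% of the bases of the arms. An irreproducible discovery rate (IDR) of 0.05 or less keeps peaks that rank high in enrichment in both replicates, with ranks that agree. It left 1046 sites, of which 15.1% were pericentromeric, close to the share of bases. Weak sites tend to be dropped even where their ranks agree, and the part of strength in this share was not tested. Enrichment ran the other way from density, with medians of 2.35 and 2.12 in pericentromeric sites and 2.74 and 2.45 in sites of the arms.

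The peaks without a transgene were also pericentromeric. Of the ZMP-HA peaks, 50.6% and 49.8% lay in these windows, against 74.5% and 80.9% of the peaks without a transgene, a difference of -27.6 percentage points (exact permutation p = 0.333, the smallest possible). In the 4 NRPD1-HA lists (WT and zmp-2), which come from a separate experiment, the share was 26.2% to 34.0%, and ZMP-HA was higher by 20.1 points (two-sided exact permutation p = 0.133, where 2 libraries against 4 can reach 0.067). The 235 regions set aside because they touched a peak without a transgene were 79.1% pericentromeric. The part of background in the pericentromeric sites that remained was not tested.

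On every chromosome the pericentromeric window was denser in sites than the arms. The densities were 98.9, 148, 127, 146 and 129 sites per Mb in the windows of chromosomes 1 to 5, against 21.5, 37.6, 20.5, 27.8 and 19.8 per Mb in their arms. Within the arms density declined with distance from the window, and was 75.8 sites per Mb in the first Mb, 45.9 in the next, 24.4 from 2 to 4 Mb, 16.5 from 4 to 8 Mb and 10.2 beyond 8 Mb. Over the same steps the median fold enrichment was 2.54, 2.68, 2.76, 2.97 and 3.06 in replicate 1, so that sites were sparser and stronger toward the chromosome ends.

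**Figure D2:**
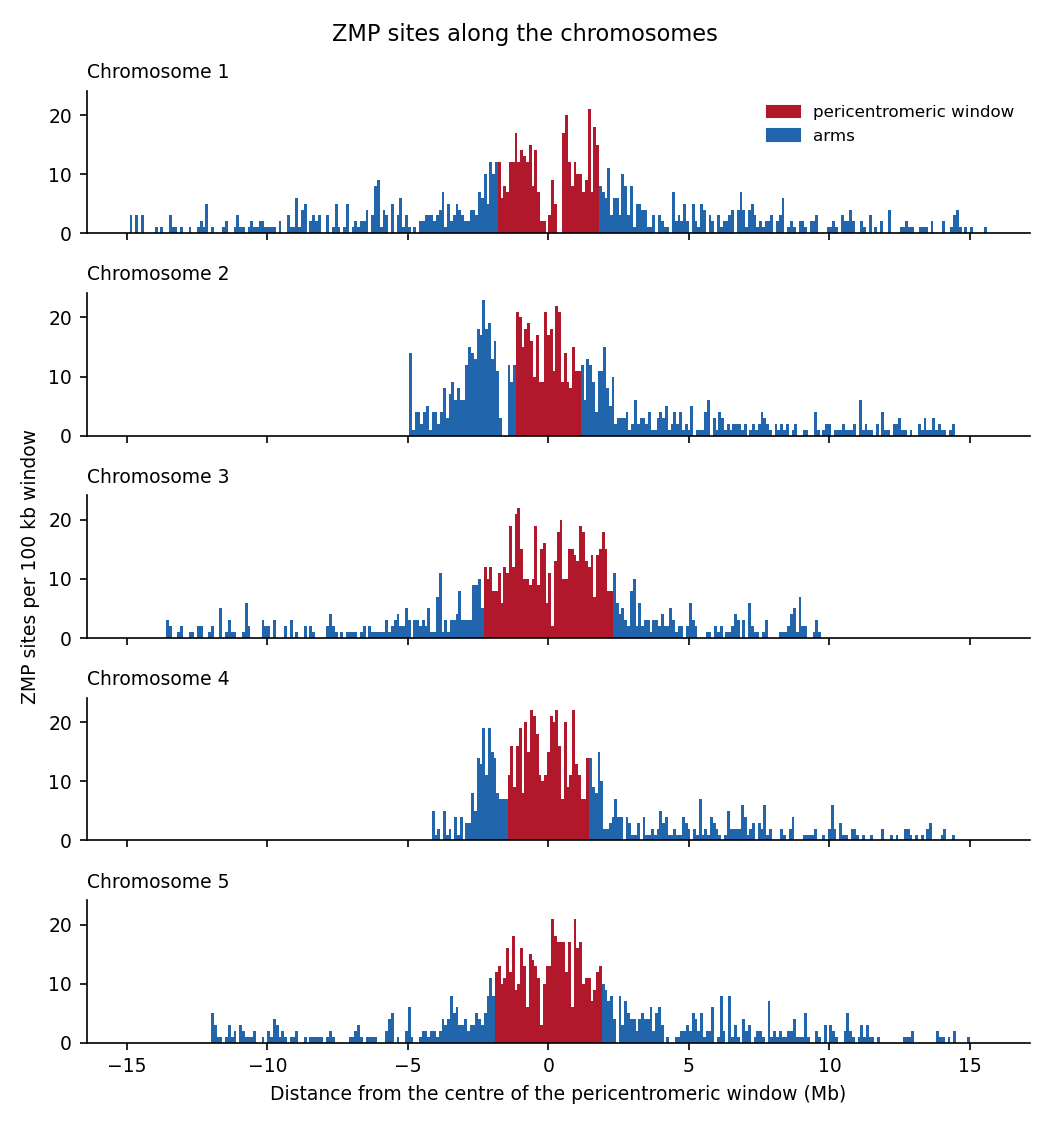
Number of ZMP sites per 100 kb window (y axis) by distance from the centre of the pericentromeric window in Mb (x axis) on chromosomes 1 to 5, with pericentromeric windows in red and arms in blue. The densest window of each chromosome held 21 to 23 sites, and on chromosomes 2 and 4 dense blocks also lay outside the red window.

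The densest 100 kb window held 21 sites on chromosome 1 (from 16300001), 23 on chromosome 2 (from 2600001), 22 on chromosome 3 (from 12500001), 22 on chromosome 4 (3 windows, from 3500001, 4400001 and 5000001) and 21 on chromosome 5 (2 windows, from 12100001 and 12900001). The libraries without a transgene had 2 and 1 peaks in the last of the chromosome 4 windows, 2 and 3 in the first of the chromosome 5 windows and 1 and 0 in the other, and none in the remaining 5 windows. The chromosome 2 window was the only one of these outside the pericentromere as defined by gene density. Of the 44 windows of the arms with 10 or more sites, 22 were on chromosome 2 and 10 on chromosome 4. They held 311 sites on chromosome 2 and 144 on chromosome 4. The rule takes 1 run of windows per chromosome, so these dense blocks count as arms in all values given for the arms. Their part in those values was not tested. The first 100 kb of chromosome 2 alone held 14 sites. Across the genome, 253 of 1193 windows (21.2%) held no site, and the top 10% of windows held 40.7% of all sites.

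ZMP sites were mostly short, and most had another site within 5 kb. Site widths had a median of 1102 bases (quartiles 697 and 1798) and ran from 362 to 12977 bases. Pericentromeric sites were wider, with a median of 1234 bases, against 971 bases in the arms. The order held on each of the 5 chromosomes, with medians of 1153 to 1334 bases in the windows, against 926 to 1056 bases in the arms. A width of more than 3000 bases was found in 439 sites (9.32%). Width depended on the merging of lists. The peaks of replicate 2 alone and of replicate 1 alone, less those touching a peak without a transgene, had medians of 640 and 747 bases, and replicate 2 peaks covered 71.3% of the site width, against 92.5% for replicate 1. In 15.8% of sites, 1 region joined 2 or more peaks of a list.

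The 5 widest sites were 10853 to 12977 bases long and each overlapped pseudogenes, 2 of them a protein-coding gene as well. The widest (chromosome 5, 10102700 to 10115676) overlapped 5 pseudogenes, among them AT5G28100, with fold enrichments of 2.69 and 2.35. In replicate 1 it was a single peak and in replicate 2 it was 5 peaks. The pseudogenes with the longest overlap in the others were AT2G11310, AT1G43883, AT2G01037 and AT3G42057, and fold enrichments were 2.79 to 3.20 in replicate 1 and 2.23 to 3.15 in replicate 2. Their GC content was 47.6% to 49.1%, above the median site. None of the 5 came near the strong sites in enrichment, and among sites of more than 3000 bases 91.8% overlapped a pseudogene, against 57.0% of all sites.

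The median distance to the nearest other site, edge to edge, was 1986 bases. Within 5 kb, 68.5% had another site, which was 87.2% of the pericentromeric sites and 52.2% of those in the arms. Pericentromeric distances had a median of 1310 bases (quartiles 599 and 2992), and those in the arms a median of 4170 bases (788 and 20992). Where sites are denser, neighbours are nearer even without clustering. The part of density in these shares was not tested. Of the 1046 sites with an IDR of 0.05 or less, 17.9% had such a neighbour.

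**Figure D3:**
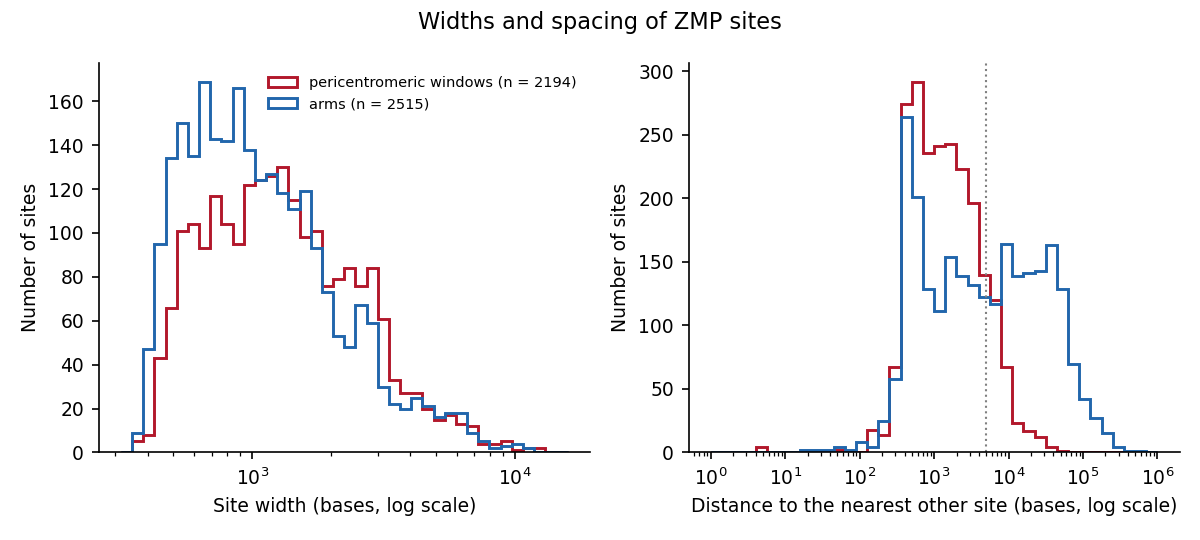
Left, number of ZMP sites by width in bases (log scale). Right, number of sites by distance in bases to the nearest other site (log scale), with the dotted line at 5 kb. Red stands for the 2194 pericentromeric sites (median width 1234, median distance 1310) and blue for the 2515 sites of the arms (971 and 4170), which spread over a wider range of distances.

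When sites no more than 5 kb apart were joined, 932 runs of 2 or more held 3227 sites, and 1482 sites stood alone. Runs of 5 or more sites numbered 191, of which 143 were pericentromeric, and held 28% of all sites. The longest run had 17 sites over 50.2 kb of chromosome 2 (2475553 to 2525747), a span with 12 pseudogenes and no protein-coding gene. The next had 16 sites over 60 kb (chromosome 2, 5329420 to 5389467), 15 over 38.9 kb (chromosome 2, 5251213 to 5290132) and 14 each over 56.0 kb and 48.4 kb (chromosome 5, from 12738540 and from 13144529). These 5 runs had median fold enrichments of 2.25 to 2.46 in replicate 1 and 2.03 to 2.17 in replicate 2. One run in the arms stood apart (chromosome 1, 8796987 to 8833089), with 10 sites over 36.1 kb, medians of 4.2 and 3.55, and 12 protein-coding genes beside 3 pseudogenes. Another run of the arms had as many sites (chromosome 1, from 17023277), with medians of 2.49 and 2.18. Both were chosen after their values were seen.

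More sites lay on pseudogenes than on protein-coding genes. RefSeq lists 4843 pseudogenes on these chromosomes, of which 3865 have no description, and many of these are loci that other Arabidopsis annotations list as transposable element genes. Pseudogenes made up 8.68% of the bases and 56.8% of the bases inside sites. Protein-coding sequence made up 28.3% of the bases and 6.86% of site bases. Of the 4709 sites, 2683 overlapped a pseudogene (57.0%, 55.5 to 58.4), 947 a protein-coding gene (20.1%, 19.0 to 21.3) and 1057 no gene (22.4%, 21.3 to 23.7). Summits fell on pseudogenes in 48.2% of sites in replicate 1 and 48.0% in replicate 2, and on coding sequence in 11% and 10%.

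Pseudogene bases were covered to a like extent in both compartments. In pericentromeric windows, pseudogenes made up 36.8% of the bases and 67.7% of site bases, and in the arms 3.94% and 45.5%. Sites covered 38.9% of the pseudogene bases of pericentromeric windows and 39.9% of those in the arms. Counted by gene, 48.1% of all pseudogenes (2328 of 4843) had a site on them. Pseudogenes without a description had one in 55.7% of 2460 cases in pericentromeric windows and in 56.7% of 1405 cases in the arms, shares whose exact intervals overlapped. Pseudogenes with a description had one in 30.8% of 234 cases in pericentromeric windows and 12.1% of 744 in the arms. Pseudogenes with a site were long, with a median of 2468 bases, against 1686 bases over all pseudogenes. A site counted from 1 shared base, so a longer locus had more room for one. Median lengths were 2061 bases for all pseudogenes without a description and 808 for those with one. The part of length in these shares was not tested. Among sites with an IDR of 0.05 or less, 31.9% overlapped a pseudogene and 36.0% a protein-coding gene, and 7.21% of all pseudogenes had such a site, so the order of the gene classes turned with this filter.

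Of all described pseudogenes, 162 of 978 (16.6%) had a site, and the shares by kind are given as a description, with no test. Those described as a transposase or transposon had a site in 18 of 28 cases, members of the Sadhu family of retroelements in 10 of 16, and those of reverse transcriptases or retrotransposons, which overlap with these, in 26 of 47. Ribonuclease H-like pseudogenes had one in 6 of 13 cases and Ulp1 protease pseudogenes in 2 of 5. Pseudogenes of F-box genes had one in 12 of 77 (15.6%), near the share of all described pseudogenes, and of kinases in 4 of 39. None was found on the 30 defensin-like, 21 ECA1 gametogenesis, 11 disease resistance and 8 self-incompatibility pseudogenes. The best ranked sites that overlapped a pseudogene, after those named above, held AT4G07031 (15.0 and 17.7, chromosome 4, 4103552 to 4108911) and AT3G42645 (12.3 and 12.5, chromosome 3, 14727600 to 14734313), with the summit beside the pseudogene in both. A further one overlapped the pseudogene AT5G56061 and had its summit in an intron of the protein-coding gene AT5G56070 (11.2 and 12.9, chromosome 5, 22705018 to 22710037), with summits 3375 bases apart in the 2 replicates.

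Protein-coding genes had a site on the gene body in 1009 of 27444 cases (3.68%, 3.46 to 3.91), and 2572 (9.37%) had one there or within 1 kb. The share was 21.9% of the 909 genes in pericentromeric windows and 3.05% of the 26535 genes in the arms. In the arms, 30.1% of sites overlapped a protein-coding gene and 32.9% lay off such genes but within 1 kb of one. Summits were within 1 kb upstream of a protein-coding gene in 15.4% and 16.1% of these sites, where such bases made up 14.8% of the arms, and on coding sequence in 16.2% and 14.8%, where it made up 32.2%. The genes with a site were short, with a median of 1485 bases against 2078 over all protein-coding genes. Of them 83.2% had no gene symbol, against 62.2%, while 3.57% were annotated as hypothetical, unknown or of a DUF family, against 4.50%. The site covered the 5′ end alone in 259 genes, the 3′ end alone in 259, the inside in 248 and the whole gene in 220.

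Around gene ends the gene classes had different profiles. In pericentromeric windows, the share of protein-coding genes with a site was 14.3% at 1 kb upstream of the 5′ end, 11.1% at 500 bases upstream, 12.1% at the 5′ end, 14.9% at 500 bases inside and 11.1% at 1 kb inside. In the arms it was 3.05%, 2.66%, 1.46%, 1.58% and 1.33% at the same points, and so was lower inside the gene than upstream. For pseudogenes it was higher inside the gene, with 18.7% at 500 bases upstream and 38.6% at 500 bases inside in pericentromeric windows, and 13.7% and 31.5% in the arms. At 500 bases inside the 3′ end of pseudogenes the share in pericentromeric windows reached 37.5%, with 32.6% for the arms, and at 500 bases past that end it was 18.3% and 13.0%.

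**Figure D4:**
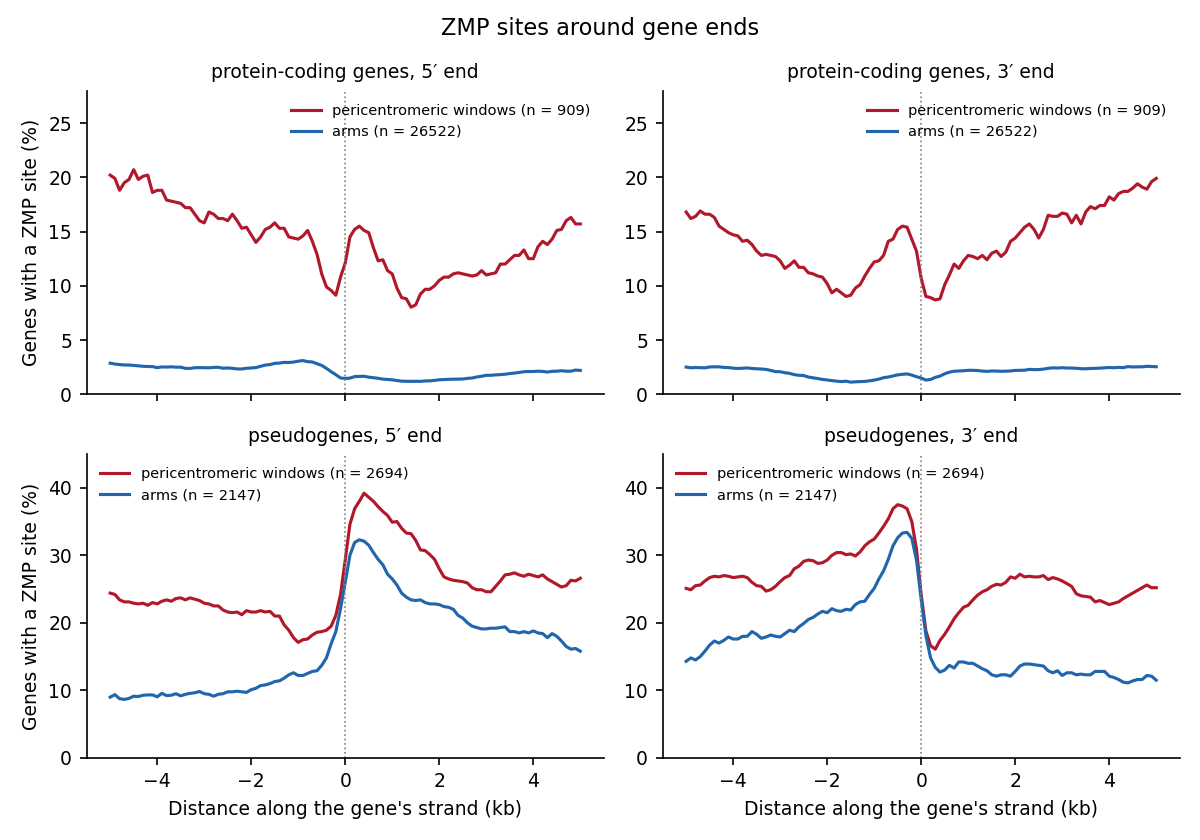
Percent of genes with a ZMP site (y axis) by distance in kb along the gene's strand (x axis) from the 5′ end (left) and the 3′ end (right) of protein-coding genes (top) and pseudogenes (bottom), in red for pericentromeric windows and blue for the arms. Pseudogene curves step up inside the gene, to 38.6% in pericentromeric windows and 31.5% in the arms at 500 bases past the 5′ end, while the curve of protein-coding genes in the arms stays at or under 3.05% at the points named in the text.

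The share of genes with a site varied among families of protein-coding genes, around 3.68% over all of them. Genes annotated with transposon-related proteins had a site in 39 of 196 cases (19.9%, 14.5 to 26.2), and in the arms alone in 32 of 172 (18.6%). F-box genes, whose products select proteins for degradation, had one in 45 of 653 (6.89%, 5.07 to 9.11), and NLR and other disease resistance genes in 13 of 168 (7.74%, 4.18 to 12.9). Genes of pollen proteins and pectin enzymes had one in 17 of 259 (6.56%, 3.87 to 10.3). Ulp1 protease and PIF1 helicase genes, relatives of which are carried by transposons, had one in 3 of 10 (30%, 6.67 to 65.2), and 7 of the 10 were pericentromeric. The intervals of these 5 families lay above 3.68%. That of the Ulp1 and PIF1 genes also held 21.9%, the share of all protein-coding genes in pericentromeric windows. These are descriptions, with no test of the families. Ribosomal protein genes had a site in 3 of 344 (0.872%, 0.180 to 2.53) and pentatricopeptide genes, whose products process organelle RNA, in 4 of 279 (1.43%, 0.392 to 3.63), with intervals below 3.68%. None of 51 histone genes had a site, and the exact interval reached 6.98%. MADS-box, self-incompatibility, cytochrome P450, receptor-like, defensin-like and hypothetical protein genes had 2.78% to 6.67%, with intervals that included 3.68%. Members of a family often lie in tandem, so their sites are not independent.

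The best ranked members were the receptor-like protein gene AT4G08545 (11 and 14.1), the self-incompatibility gene AT4G24973 (9.95 and 10.7) and the F-box gene AT3G21170 (8.16 and 8.44). A reverse transcriptase-related gene, AT1G60720, had 6.44 and 4.63, the ribosomal protein gene AT3G10950 had 5.98 and 4.45, and PPME1, a pectin enzyme gene, had 5.95 and 4.23. CYP72A13 had 5.29 and 4.21, the pentatricopeptide gene AT3G62470 had 5.03 and 3.90 in a site that only touched its 5′ end and had its summit on a pseudogene, and the disease resistance gene AT5G47260 had 4.86 and 4.22. The thionin gene AT1G21835 had 4.76 and 4.8, AT1G13470, of unknown function, 4.49 and 5.15, the Ulp1 protease gene AT5G45570 3.6 and 3.0, and the MADS-box gene AT1G59930 3.40 and 2.95. The sites at AT4G24973, AT1G13470 and AT5G45570 overlapped the gene but had their summit off it, within 1 kb of a protein-coding gene. In the others, except that at AT3G62470, the summit lay in coding sequence, not necessarily of the named gene.

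Sites with their summit in coding sequence included 4 more strong ones beside AT4G08545. They were on AT5G04853 (11.8 and 13.6, chromosome 5, 1410205 to 1411823), AT2G16620, a protein kinase gene (10.2 and 10.5, chromosome 2, 7203708 to 7206695), AT2G06555 (10.5 and 9.46, chromosome 2, 2602622 to 2606939) and AT5G15420 (13.6 and 8.52, chromosome 5, 5007846 to 5008700). At AT5G15420 the site lay within the gene, and local background exceeded the library's common level by a factor of 1.37 and 1.41.

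Few genes of the pathway itself had a site, as was true of protein-coding genes at large. Of 25 genes for the RNA-directed DNA methylation machinery, none had a site on the gene body. DMS3, which encodes a protein that works with Pol V, had one 453 bases past its 3′ end with fold enrichments of 6.41 and 4.62 (chromosome 3, 18254594 to 18255506). The summit of that site lay in exon sequence of another protein-coding gene. Among 12 genes for the maintenance and removal of DNA methylation, 1 had a site. This was IBM1, which encodes a histone H3 lysine 9 demethylase, with 3.11 and 3.37 and the summit in an intron (chromosome 3, 2430146 to 2430696). None of 15 genes for H3K4 methyltransferases and demethylases had a site within 1 kb. Of ZMP and 5 ZMP-like genes, NERD, which acts in a separate small RNA pathway, had a site 600 bases upstream, with 2.51 and 2.32, on coding sequence of another gene. ZMP itself had no site within 1 kb, and the nearest was 326090 bases away. These counts stand beside the 9.37% of all protein-coding genes with a site on the gene or within 1 kb.

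Loci known for DNA methylation or imprinting had a site on the gene in 3 of 18 cases and on it or within 1 kb in 5 (16.7% and 27.8%), where 3.68% and 9.37% of all protein-coding genes did. The loci were chosen with earlier results known, so this is a description. Beside IBM1, these were 2 neighbours in a cluster of immune receptor genes. RPP4 was partly covered by a wide site with 4.41 and 2.67 (chromosome 4, 9483971 to 9492037, 8067 bases), whose summit was on a pseudogene, and SNC1 had 2.68 and 2.36 on its coding sequence (chromosome 4, 9502809 to 9503733). ALN, encoding allantoinase, had a site 421 bases past its 3′ end with 3.40 and 2.79. QQS, an orphan gene involved in starch content, had one 551 bases upstream with 2.63 and 2.59, with the summit on a pseudogene.

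Classes of non-coding RNA genes differed in their share with a site, which is set here beside the 3.68% of protein-coding genes. Long non-coding RNA genes had one in 201 of 3480 cases (5.78%), microRNA genes in 19 of 326 (5.83%), genes of the class misc_RNA in 38 of 508 (7.48%), those of the class ncRNA in 21 of 221 (9.50%), and transfer RNA genes, which are transcribed by Pol III, in 2 of 625 (0.320%). These genes are short, with median lengths of 343 bases for long non-coding RNA, 144 for microRNA and 73 for transfer RNA genes. Protein-coding genes had a median of 2078 bases. A site counted from 1 shared base, and the part of length in these shares was not tested. Sites covered 5.67% of the bases of non-coding RNA genes, against 6.0% of all bases. The strongest were on AT3G03395 (15.6 and 17.9, chromosome 3, 5778885 to 5781356), AT4G05995 (12.8 and 14.1, chromosome 4, 7592090 to 7593519), AT2G04885 (13.6 and 12, chromosome 2, 1926650 to 1929441) and AT3G08370 (10.5 and 13.9, chromosome 3, 20030164 to 20032897). The summits of these 4 lay in the RNA gene. A further site touching AT3G05025 (10.5 and 12.7, chromosome 3, 9706610 to 9709810) had its summit 491 bases past the 3′ end of PIRL2.

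Of the 3 sites weakest in fold enrichment, 2 lay at ribosomal RNA genes, tandem repeats of which the assembly holds a few copies. At the start of chromosome 2, sites from 4289 to 7402 and from 3226 to 3914 overlapped the ribosomal RNA gene AT2G01010, with fold enrichments of 1.76 and 1.28 and of 1.57 and 1.37. Local background there exceeded the common level of the library by a factor of 713 and 753 at the first and of 723 and 748 at the second. Their -log10 q was 2108 and 282 at the first and 1265 and 496 at the second, so they were not weak in q-value. The third (chromosome 2, 3954463 to 3956020) had 2.38 and 1.38. Only 5 sites had a background of more than 10 times the usual level in either replicate. Just inside the rule, the sites with the weakest q-value in their weaker list had a -log10 q of 1.31 to 1.32 in replicate 2. Just outside it, the regions with the strongest q-value of a peak in 1 list lay on chromosome 3 near 14191999 and at the start of chromosome 2. In replicate 1 they had a -log10 q of 1023 and 672, but a low fold enrichment of 1.61 and 1.47. A region with 7.5 and 7.74 (chromosome 5, 22439995 to 22442895) was left out because it touched a peak without a transgene.

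Sites were rich in GC, and in the arms also in repeats. Sites of pericentromeric windows had a median GC content of 43.9%, and sites of the arms had 40.3%, against 37.1% and 35.9% of all bases there. Composition peaked sharply at the summits, with 48.0% and 43.9% GC over 100 bases, and returned to 38.4% and 34.5% within 500 bases. At the summits of all peaks, mean GC content was 45.5% and 45% in the ZMP-HA lists, against 40.6% and 39.4% in the set B lists without a transgene. In the set A lists without a transgene, from the NRPD1-HA experiment, it was 49.5% and 42.1%, so that one of them lay above both ZMP-HA lists. It also differed between replicates of NRPD1-HA, with 42.3% and 38.1% on the WT background and, in the zmp-2 mutant, 39.7% and 36.1%, so it varied by library. The part of library preparation in these values was not tested. Over whole sites, the 103 strongest did not share the high GC content, with a median of 33.5%. This does not describe their summits, where the 5 printed runs from strong sites had 35.8% to 48.3%.

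Repeated sequence was counted as the share of 25-base words that occur more than once on the 5 chromosomes. In the arms it averaged 29.9% inside sites, against 6.21% of all words of the arms. In pericentromeric windows it averaged 37.4% inside sites, against 35.5% of all words, so that sites there were about as repeated as their surroundings. In the arms the share was 31.0% at summits and 15.5% at 5 kb to either side. In all, 31.7% of sites had more than 50% of their words repeated and 27.9% had fewer than 5%. Reads from repeated words cannot be placed with certainty, and how the aligned reads were filtered for this is not given in the sources used here.

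**Figure D5:**
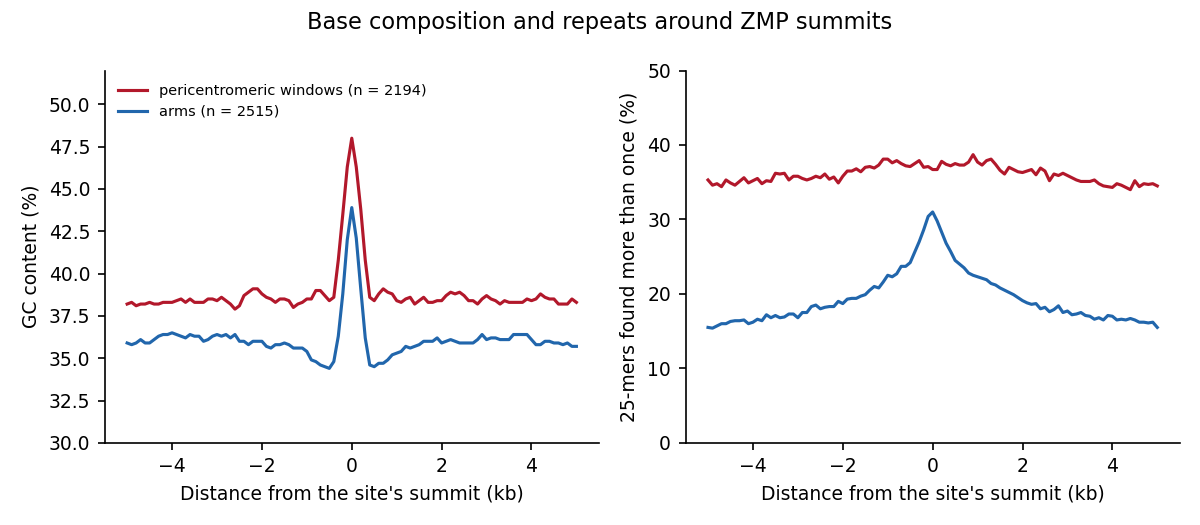
Mean GC content (left) and share of 25-base words found more than once on chromosomes 1 to 5 (right), both in percent on the y axis, by distance in kb from the summit of each ZMP site (x axis), in red for pericentromeric windows and blue for the arms. GC content peaks at the summit in both (48.0% and 43.9%), whereas the repeated share peaks only in the arms (31.0% at the summit, 15.5% at 5 kb).

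Of 4 motifs searched on both strands in 201 bases around each summit, TATAAA, the core of the TATA box, was less common than in windows of the same length across the chromosomes. It was in 4.33% of pericentromeric and 10.6% of arm summit windows, against 22.7% and 26.1% of all windows. GC content was higher at summits, as given above, and its part in this was not tested. The telobox AAACCCTA was in 1.55% and 2.74%, against 3.79% and 2.45%. The G-box CACGTG was in 2.01% and 2.15%, against 1.43% and 2.33%, and GAGAGAGA in 2.23% and 4.93%, against 2.12% and 3.37%. A match describes the letters in these windows and not a binding site.

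Pol IV sites were built by the same rule from the 2 NRPD1-HA lists in WT and the 2 set A lists without a transgene. At least 1 base of a Pol IV site was shared by 65.5% of the ZMP sites, which was 49.3% of the pericentromeric sites and 79.6% of those in the arms. By bases, Pol IV sites held 43.8% of the pericentromeric ZMP site bases and 74.1% of those in the arms, against 21.5% and 6.30% of all bases there. A peak of H3K4me3, a mark of active gene 5′ ends with 1 library, was touched by 8.81% of the ZMP sites. By bases, these peaks held 1.33% of ZMP site bases, against 6.74% of all bases. The shares were 1.02% against 2.07% in pericentromeric windows and 1.64% against 7.53% in the arms.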

How the data were processed

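ChIP-seq peak lists of 11 immunoprecipitates were used, of which 4 (ZMP-HA and WT no transgene, set B) carry the results. According to the study's methods and the submitters' processing notes, reads were trimmed with Trim Galore 0.4.3, aligned to TAIR10 with Bowtie2 2.2.9, and peaks were called per sample with MACS2 2.2.6 against the input. The deposited lists give for each peak a score, the fold enrichment at the summit (a ratio) and −log10 p and q values, all made by the authors' peak caller. The lists hold peaks with q of 0.05 or less. Read totals are not in these lists, so background coverage rebuilt from fold and p-value was used as a stand-in for depth.

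Peaks sharing at least 1 base were merged. Pericentromeric windows came from a 1 Mb running mean of RefSeq protein-coding genes in 100 kb windows. Genes and sequence came from RefSeq TAIR10.1, which keeps the nuclear chromosomes of TAIR10, and no peak ran past the end of a RefSeq chromosome. Where a base had several annotations, the order was coding sequence, other exon, intron, pseudogene, non-coding RNA gene, flank upstream, flank downstream. The study instead kept reproducible peaks by IDR, which was run here as an alternative with a separate implementation. Libraries were compared by exact permutation tests, and binomial intervals are at 95% and cover counting error only. Overlap, background and IDR functions were tested on simulated data. Python 3.11.15, NumPy 2.4.6, pandas 2.3.3 and SciPy 1.17.1 were used.

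Named sites were the best 10 by the worse rank of fold enrichment, the best 5 in each of 5 surroundings, the 5 widest, the 5 longest runs, the densest window per chromosome, the 3 weakest, the listed genes with a site and the best member of each family. Members and lists were chosen with earlier results of these data known. Text patterns of 4 families were corrected after first values had been seen, because they matched unrelated words. The other samples were not analysed here beyond the values given.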

Additional observations from a re-analysis of the deposited data

How the results depend on the processing

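The number of sites stayed within 1.5 times 4709 under every alternative but an IDR of 0.05 or less, which left 1046. With that filter 15.1% of sites were pericentromeric, 17.9% had a neighbour within 5 kb, 31.9% lay on pseudogenes and 36.0% on protein-coding genes, and 1.59% of protein-coding genes had a site. A reciprocal overlap of 50% gave a median width of 872 bases, 40.9% pericentromeric sites, 22.8% on protein-coding genes, 47.8% on pseudogenes, 49.4% with a neighbour, and 2.97% of protein-coding genes with a site. Without removal of control peaks, 48.1% were pericentromeric and 70.3% had a neighbour. Removal against all 4 lists without a transgene gave 55.3% on pseudogenes, 64.1% with a neighbour and 3.45% of protein-coding genes. Windows under 25% of the median gene density (9.32% of bases) held 30.6% of sites. By summit, 14.5% lay on protein-coding genes and 48.4% on pseudogenes. Within 1 kb 34.1% and within 10 kb 78.6% had a neighbour, and with 1 kb flanks 9.37% of protein-coding genes had a site. Leaving out 1 library at a time gave 4754 to 6983 sites, median widths of 640 to 1104 bases, 46.8% to 49.4% pericentromeric, 17.1% to 20.1% on protein-coding genes, 54.5% to 57.0% on pseudogenes, 68.9% to 77.3% with a neighbour and 3.70% to 5.07% of protein-coding genes. Pairing libraries by replicate number as a block left the differences at 6704 peaks, 151 bases and -27.6 points, with an exact permutation p of 0.5, the smallest a block of 2 pairs allows. The numbers are not stated to mark a shared batch. Leave-out values of the library differences (6445 to 6962 peaks, 88.0 to 214 bases, -30.8 to -24.4 points) and the pseudogene share with IDR (7.21%) were chosen after seeing the data. The cause of these shifts was not tested. Without read totals, no counting interval for a single site could be given.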
